A study of Mus musculus with 59 samples.

Results

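This report sets 8 Th-high libraries against 8 Th-low libraries from the ventral tegmental area (VTA) of male mice that took cocaine or saline by intravenous self-administration. The study holds 59 RNA-seq libraries, of which 24 are self-administration libraries (15 cocaine, 9 saline), and the 8 with the highest and the 8 with the lowest FPKM (mapped fragments scaled to transcript length and library size) of Th, tyrosine hydroxylase, were taken from these 24. The 35 other libraries came from mice given injections, namely acute cocaine in the home cage (n = 5), acute saline (n = 6), chronic cocaine (n = 6), chronic saline (n = 6), cocaine conditioning (n = 6) and saline conditioning (n = 6). Neither strain and age nor any pooling of animals is stated in the sources used here. The labels do not say that each library came from a separate mouse, so the p-values below measure the spread between these libraries.

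Dopamine neurons of the VTA make dopamine from tyrosine by tyrosine hydroxylase, with tetrahydrobiopterin as cofactor, and aromatic amino acid decarboxylase. They load it into vesicles with VMAT2 and take it back up with the dopamine transporter. They lie among GABA neurons, glutamate neurons and glia, so a bulk dissection holds a mixture. Fewer dopamine neurons in a piece of tissue and less RNA per dopamine neuron cannot be told apart in such data.

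Th chose the libraries, and its values are given here only to show the choice. Th spanned 259 to 499 FPKM in the Th-high libraries (median 376) and 128 to 201 FPKM in the Th-low libraries (median 159). The limits fell in a continuous range. The lowest Th-high library, saline library 2, had 259 FPKM and the next library down, cocaine library 1, had 243 FPKM. The highest Th-low library, saline library 8, had 201 FPKM and the next library up, cocaine library 3, had 216 FPKM. The 8 libraries in between are called the middle libraries. Each side held 4 cocaine and 4 saline libraries (Fisher's exact test, two-sided, p = 1), and the middle held 7 cocaine libraries and 1 saline library. Libraries are named by their treatment and the number in the column header, which counts from 0 and has no known link to the labels' replicate numbers.

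The FPKM sums of the 24 libraries ran from 398577 to 457508, and read depth is unknown because no read counts were used. Libraries varied in how far they lay from the rest. Cocaine library 6, on the Th-low side, and saline library 0, on the Th-high side, had the lowest mean correlation of log2(FPKM + 1) with the other self-administration libraries, 0.967 each. Their scores on the first principal component, which held 21.0% of the variance, were -29.7 for cocaine library 6 and -34.1 for saline library 0. They are called the libraries that stood apart, although the next in order were close, with cocaine library 0, a middle library, at 0.970 and saline library 4, on the Th-high side, at 0.971. Of 124 genes examined one by one, the difference defined below moved by over 1.5 times for 15 and changed sign for 7 without cocaine library 6, for 12 and 3 without saline library 0, and for 16 and 5 without saline library 4. Most of these differences were small. Among the 63 genes with a difference of at least 0.4 in size, Npy moved that far without cocaine library 6, Pmch and Nkx6-1 without saline library 0, and Pmch and Hcrt without saline library 4, where Gh and Prl changed sign.

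The label was checked on Slc6a3, the dopamine transporter, which the choice did not read directly but which comes from the same libraries. Slc6a3 ran from 237 FPKM through a median of 440 to 608 FPKM in the Th-high libraries, against 130, 160 and 308 FPKM in the Th-low libraries. In 6 of the 8 Th-high libraries Slc6a3 lay above every Th-low library, and the Th-low libraries that reached into the Th-high range were cocaine library 6, at 308 FPKM, and saline library 8, at 260.0 FPKM. The mean was 429 ± 131 FPKM in Th-high libraries and 190 ± 67.0 FPKM in Th-low libraries (SD, n = 8 each), and the middle libraries lay between at 250 ± 30.2 FPKM (n = 8). The difference of mean log2(FPKM + 1), Th-high minus Th-low, was 1.18 ± 0.24 (SE). It was 1.26 without both libraries that stood apart. The order of the libraries by Slc6a3 was not the order by Th. Saline library 0 had 1.76 FPKM of Slc6a3 per FPKM of Th, against a median of 1.11 in the Th-high libraries.

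All differences of Th-high minus Th-low below are differences of mean log2(FPKM + 1), which understate the change of low genes. No p-value is given for them, because the libraries were chosen by a measured value. A gene is said not to overlap when all 8 Th-high libraries lay on one side of all 8 Th-low libraries. Of 13129 genes that averaged 1 FPKM or more across the 24 libraries, Th left out, 14 were higher without overlap (0.107%) and 8 were lower without overlap (0.0609%). These shares are a description of genes that go with the measure used for the choice, and nothing is read from them. After quantile normalization of the libraries the split was 12 higher and 4 lower, of which 7 and 4 were among the genes above, Drd2, Gch1, Ntsr1 and Slc39a4 among them. Of the higher genes, Chrna4, Meis1, Mturn, Npbwr1, Ppap2c, Sncg and Ttc12 then overlapped. Of the lower genes, Arhgap36, Cdkl4, Chodl and Fzd1 did. Over all 13129 genes the median difference was 0.0071 and 53.4% were above 0.

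The independent test used the 35 injected libraries, which had no part in the choice. There, each gene was fitted with limma on log2 of Th within the 6 groups, and the slope is the change in log2(FPKM + 1) per log2 unit of Th. Of 13172 genes tested, 1782 had a positive slope (13.5%) and 1824 a negative slope (13.8%) at a Benjamini-Hochberg adjusted p under 0.05. Th and the fitted gene come from the same library, so a slope also carries anything else that varies with Th between dissections. Across the injected libraries Th ran from 124 to 691 FPKM with a median of 355, and Slc6a3 from 107 to 597 FPKM with a median of 298.

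Genes for making, storing and recycling dopamine were higher in the Th-high libraries, with 2 exceptions. Of the 9 genes on this list, all of which passed the filter on low values, 7 had a difference above 0, with a list median of 0.88 against 0.0071 for all genes, and Gch1 and Sncg did not overlap. Among the injected libraries 7 of the 9 had a positive slope and 1 a negative slope at an adjusted p under 0.05 in limma, against 13.5% and 13.8% of all genes. Gch1 encodes GTP cyclohydrolase 1, the rate-limiting enzyme of tetrahydrobiopterin synthesis. It had 10.2, 13.8 and 22.6 FPKM (lowest, median, highest) in the Th-high libraries, against 5.15, 7.08 and 9.67 FPKM in the Th-low libraries. Every Th-high library was above every Th-low library, the difference was 0.94 ± 0.17 (SE), and the slope in the injected libraries was 0.79 ± 0.02 (limma, adjusted p = 5.24e-24).

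Ddc, the aromatic amino acid decarboxylase, averaged 336 ± 83.5 FPKM in Th-high libraries and 172 ± 55.4 FPKM in Th-low libraries (SD, n = 8 each). Its ranges were 223 to 441 FPKM in Th-high libraries and 112 to 271 FPKM in Th-low libraries, and 6 of 8 Th-high libraries were above all Th-low libraries. Slc18a2, the vesicular monoamine transporter VMAT2, averaged 174 ± 49.5 FPKM in Th-high libraries and 85.5 ± 33.8 FPKM in Th-low libraries, with 5 of 8 Th-high libraries above the whole Th-low range. Aldh1a1, a retinaldehyde dehydrogenase of a ventral group of midbrain dopamine neurons, averaged 379 ± 112 FPKM in Th-high libraries and 211 ± 96.3 FPKM in Th-low libraries. For these genes too the Th-low libraries that reached into the Th-high range were cocaine library 6, with 271 FPKM of Ddc and 427 FPKM of Aldh1a1, and saline library 8, with 228 FPKM of Ddc and 268 FPKM of Aldh1a1. Without cocaine library 6 the difference of Aldh1a1 was 1.04, against 0.88 with it. Sncg, gamma-synuclein, ran from 115 to 153 FPKM in Th-high libraries and from 59.4 to 114 FPKM in Th-low libraries, so its nearest libraries almost touched.

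The enzymes of the tetrahydrobiopterin pathway did not move together. Pts, which catalyses the step after Gch1, averaged 23.4 ± 3.45 FPKM in Th-high libraries and 24.5 ± 4.74 FPKM in Th-low libraries, a difference of -0.05 ± 0.11 (SE) that was 0.01 without cocaine library 6. Qdpr, which regenerates the cofactor, averaged 235 ± 35.7 FPKM in Th-high libraries and 246 ± 50.1 FPKM in Th-low libraries, and in the injected libraries its slope was -0.13 ± 0.03 (limma, adjusted p = 0.0056). Cyb561, a cytochrome b561 of secretory vesicles, had a small difference of 0.13 ± 0.06 and a slope of 0.15 ± 0.03 (limma, adjusted p = 5.15e-05).

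**Figure D1:**
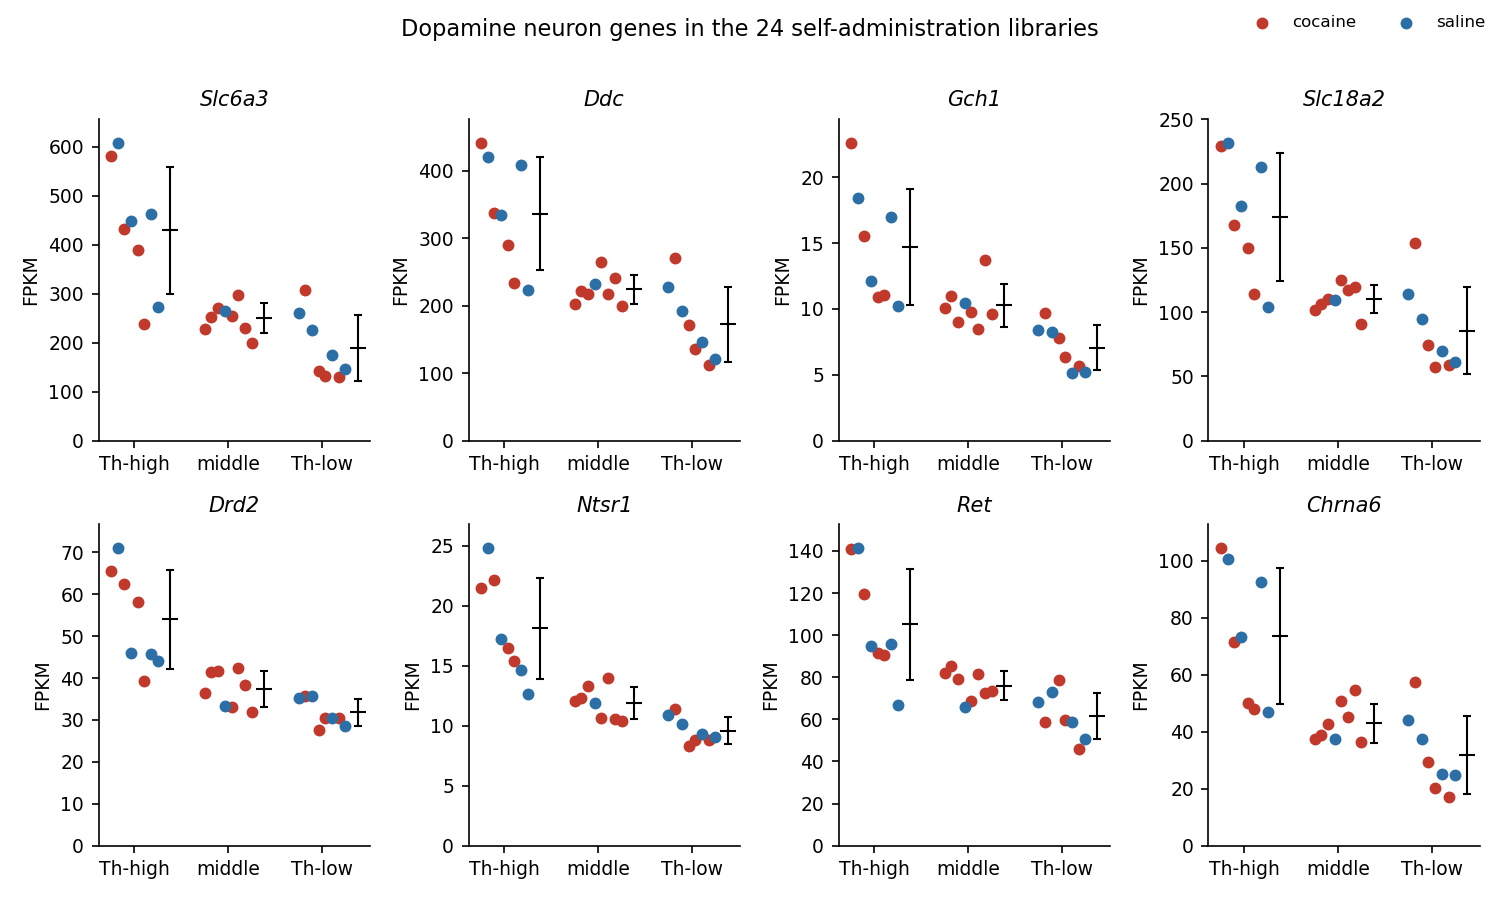
FPKM of 8 dopamine neuron genes in the 24 self-administration libraries, ordered from left to right by falling Th within the Th-high, middle and Th-low libraries (n = 8 each, red for cocaine and blue for saline), with the mean and SD beside each set. Gch1, Drd2 and Ntsr1 show no overlap between the Th-high and Th-low libraries, whereas the Th-low libraries cocaine library 6 and saline library 8 reach into the Th-high range for Slc6a3, Ddc and Slc18a2, and cocaine library 6 does for Chrna6.

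The promoters of 4 genes of dopamine synthesis, reuptake and reception that moved together in both sets of libraries are shown for context. The 250 bases before the transcription start are given 5′ to 3′ on the gene's strand, from RefSeq on GRCm38.p6, with Ddc at the first of its listed starts. Capitals mark every match, on either strand, to the NBRE (AAAGGTCA, the response element of the Nr4a family), the GC box (GGGCGG) or the TATA box (TATAAA).
Gch1 at chr14:47189414-47189663, minus strand: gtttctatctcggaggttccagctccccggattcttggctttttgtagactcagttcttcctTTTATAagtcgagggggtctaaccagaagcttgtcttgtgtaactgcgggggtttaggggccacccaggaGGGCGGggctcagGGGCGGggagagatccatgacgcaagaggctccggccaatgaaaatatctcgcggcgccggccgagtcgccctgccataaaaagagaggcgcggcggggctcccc
Ddc at chr11:11898145-11898394, minus strand: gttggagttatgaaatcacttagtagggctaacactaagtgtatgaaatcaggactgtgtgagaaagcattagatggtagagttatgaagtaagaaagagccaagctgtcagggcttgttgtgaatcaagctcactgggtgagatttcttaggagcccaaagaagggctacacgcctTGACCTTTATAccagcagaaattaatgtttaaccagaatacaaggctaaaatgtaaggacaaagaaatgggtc
Slc6a3 at chr13:73536497-73536746, plus strand: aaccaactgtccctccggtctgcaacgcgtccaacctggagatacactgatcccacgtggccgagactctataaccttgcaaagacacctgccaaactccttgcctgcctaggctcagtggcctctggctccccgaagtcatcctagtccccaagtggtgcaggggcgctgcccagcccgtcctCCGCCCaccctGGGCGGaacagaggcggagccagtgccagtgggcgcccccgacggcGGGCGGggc
Drd2 at chr9:49340153-49340402, plus strand: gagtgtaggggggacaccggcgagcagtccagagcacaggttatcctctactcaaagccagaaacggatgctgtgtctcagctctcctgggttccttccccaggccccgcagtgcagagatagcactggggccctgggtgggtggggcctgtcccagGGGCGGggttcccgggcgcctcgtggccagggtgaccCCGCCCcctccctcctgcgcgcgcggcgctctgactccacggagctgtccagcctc
Gch1 and Drd2 held 2 GC boxes each and Slc6a3 held 3. Gch1 also held a TATA box match on the minus strand that began 188 bases before the start. Ddc held an NBRE match on the minus strand that began 73 bases before the start and overlapped a TATA box match. Among 32851 promoters of the same length, 1.34% held an NBRE, 32.7% a GC box and 12.4% a TATA box. Of the 14 genes higher without overlap, 10 were found in the promoter table, of which 0 held an NBRE, 7 a GC box and 2 a TATA box. All 8 genes lower without overlap were found, of which 0 held an NBRE, 4 a GC box and 2 a TATA box. A match describes these letters only and is not evidence of binding.

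The receptor genes Drd2, Ntsr1 and Npbwr1 were also higher in the Th-high libraries. Drd2, the D2 autoreceptor through which dopamine inhibits the neurons that release it, had 39.2, 52.0 and 71.1 FPKM (lowest, median, highest) in the Th-high libraries, against 27.6, 30.5 and 35.8 FPKM in the Th-low libraries. The sides did not overlap, and the middle libraries averaged 37.3 ± 4.30 FPKM. The difference was 0.72 ± 0.12 (SE) and the slope in the injected libraries was 0.72 ± 0.04 (limma, adjusted p = 4.67e-17). Ntsr1, the neurotensin receptor of dopamine neurons, had 12.6, 16.9 and 24.8 FPKM in the Th-high libraries, against 8.30, 9.17 and 11.4 FPKM in the Th-low libraries. Its difference was 0.83 ± 0.12 and its slope 0.83 ± 0.02 (limma, adjusted p = 5.22e-24). Npbwr1, a receptor for neuropeptides B and W, was low, at 2.78 ± 0.80 FPKM in Th-high libraries and 1.497 ± 0.29 FPKM in Th-low libraries (SD, n = 8 each), and did not overlap. Its nearest libraries all but touched, at 1.871 FPKM (Th-high) and 1.856 FPKM (Th-low). Which cells carried Npbwr1 was not tested.

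The other genes on the list of dopamine receptors and turnover had smaller differences than Drd2. Of its 9 genes, 5 passed the filter, their median difference was 0.04, and Drd3, Drd4, Drd5 and Gpr143 had a mean under 1 FPKM over the 24 libraries. Drd1 averaged 1.61 ± 0.40 FPKM in Th-high libraries and 1.70 ± 0.44 FPKM in Th-low libraries. Maoa, a monoamine oxidase, had a difference of 0.12 ± 0.07 (SE), and its slope in the injected libraries was 0.20 ± 0.02 (limma, adjusted p = 3.36e-10). Maob averaged 19.7 ± 2.01 FPKM in Th-high libraries and 20.1 ± 8.50 FPKM in Th-low libraries, a difference of 0.04 ± 0.17, with a slope of 0.10 ± 0.04 (limma, adjusted p = 0.0415). Cocaine library 6 had 40.6 FPKM of Maob and the next Th-low library 19.8 FPKM, and without cocaine library 6 the difference was 0.20.

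Nicotinic acetylcholine receptor subunits, through which acetylcholine and nicotine excite dopamine neurons, were among the largest differences. Chrna6, the alpha6 subunit, had 46.9, 72.5 and 105 FPKM (lowest, median, highest) in Th-high libraries, against 16.9, 27.2 and 57.4 FPKM in Th-low libraries. With all libraries 5 of the 8 Th-high libraries were above the Th-low range. Without cocaine library 6 all 8 were, and the difference was 1.34 in place of 1.21. Chrnb3, the beta3 subunit that joins alpha6 in the same receptors, averaged 26.2 ± 7.22 FPKM in Th-high libraries and 12.4 ± 4.25 FPKM in Th-low libraries. Chrna4 averaged 51.6 ± 9.40 FPKM in Th-high libraries and 34.2 ± 4.09 FPKM in Th-low libraries and did not overlap. Chrna5 averaged 5.31 ± 1.87 FPKM in Th-high libraries and 2.48 ± 0.79 FPKM in Th-low libraries, and 7 of 8 Th-high libraries were above the Th-low range. The injected slopes of Chrna6, Chrnb3, Chrna5 and Chrna4 were 1.00, 0.88, 0.80 and 0.44, each past the limma threshold, with Chrna4 at an adjusted p of 9.35e-12.

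The wider list of other dopamine neuron genes was uniform in sign. All 20 genes passed the filter, all 20 had a difference above 0 with a median of 0.62 (19 of 20 after quantile normalization, Gap43 being the exception), and 19 of 20 had a positive slope in the injected libraries, against 13.5% of all genes. The exception to the slope was Vav3 at 0.01 ± 0.04 (limma, adjusted p = 0.914). Slc10a4, a vesicular protein of monoamine and cholinergic neurons, averaged 71.9 ± 20.8 FPKM in Th-high libraries and 33.9 ± 13.2 FPKM in Th-low libraries, with a difference of 1.09 ± 0.23 (SE). Ret, the signalling receptor for GDNF, averaged 105 ± 26.4 FPKM in Th-high libraries and 61.7 ± 10.9 FPKM in Th-low libraries, and its slope of 0.72 ± 0.02 had an adjusted p of 5.01e-26 in limma. Gfra1, the co-receptor of Ret, had a smaller difference of 0.40 ± 0.10. Tacr3, the neurokinin 3 receptor, averaged 19.5 ± 5.10 FPKM in Th-high libraries and 12.1 ± 1.97 FPKM in Th-low libraries. Cplx1, a complexin of the release machinery that many other neurons also express, averaged 658 ± 52.4 FPKM in Th-high libraries and 436 ± 102 FPKM in Th-low libraries.

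Transcription factors of dopamine neuron identity showed smaller differences than the synthesis genes. Of the 15 genes on the list, 14 passed the filter, 14 of these had a difference above 0 with a median of 0.30, and none was without overlap. Of the 14, 13 had a positive slope in the injected libraries (13.5% of all genes did), the other being Ebf3 at -0.08 ± 0.05 (limma, adjusted p = 0.209). En1, an engrailed factor needed by dopamine neurons to survive, had the largest difference of the list. It averaged 17.2 ± 4.71 FPKM in Th-high libraries and 8.55 ± 3.62 FPKM in Th-low libraries, a difference of 0.97 ± 0.23 (SE). En2 averaged 5.28 ± 1.58 FPKM in Th-high libraries and 2.88 ± 0.99 FPKM in Th-low libraries. Lmx1b averaged 5.50 ± 0.76 FPKM in Th-high libraries and 3.62 ± 0.52 FPKM in Th-low libraries, and 7 of 8 Th-high libraries were above the Th-low range.

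Nr4a2 (Nurr1), a nuclear receptor that switches on Th and Slc6a3, differed little between the sides. It had 21.5, 34.3 and 45.4 FPKM (lowest, median, highest) in Th-high libraries, against 23.5, 29.3 and 34.9 FPKM in Th-low libraries. The Th-high libraries spread on both sides of the Th-low range, 3 above it and 2 below it, and the difference of 0.15 ± 0.16 (SE) was no larger than its error. Its slope in the injected libraries was 0.34 ± 0.04 (limma, adjusted p = 3.93e-08). Foxa2 averaged 5.90 ± 1.58 FPKM in Th-high libraries and 5.94 ± 2.09 FPKM in Th-low libraries, and Ebf3 23.3 ± 5.16 FPKM in Th-high libraries and 22.5 ± 5.11 FPKM in Th-low libraries. Without cocaine library 6 both turned below 0, Foxa2 to -0.11 in place of 0.03 and Ebf3 to -0.02 in place of 0.04. Pitx3, a factor of midbrain dopamine neurons, was too low for the filter, at 1.03 ± 0.64 FPKM in Th-high libraries and 0.58 ± 0.27 FPKM in Th-low libraries. In the injected libraries Pitx3 averaged 9.79 ± 5.05 FPKM (n = 35) and had the largest positive slope of all genes tested, 1.04 (limma, adjusted p = 3.54e-12). Why the level of Pitx3 differed between these sets of libraries was not tested.

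Markers of dopamine neuron subtypes were uneven. Of 19 genes, all of which passed the filter, 13 had a difference above 0 and 6 below, with a median of 0.17. On Th in the injected libraries 12 had a positive and 3 a negative slope, against 13.5% and 13.8% of all genes. Ntf3, neurotrophin 3, averaged 5.98 ± 1.88 FPKM in Th-high libraries and 2.77 ± 1.11 FPKM in Th-low libraries, and 5 of 8 Th-high libraries were above the Th-low range, or 8 of 8 without cocaine library 6. Grp, gastrin-releasing peptide, had a difference of 0.50 ± 0.25 (SE), Lpl, lipoprotein lipase, 0.56 ± 0.26, and Neurod6 0.51 ± 0.19. Calb1, calbindin, averaged 43.2 ± 10.3 FPKM in Th-high libraries and 35.3 ± 18.8 FPKM in Th-low libraries, with the Th-high range inside the Th-low range. The top of the Th-low range, 79.1 FPKM, was cocaine library 6, without which the next Th-low library was at 39.5 FPKM, 5 of 8 Th-high libraries lay above it and the difference was 0.55 in place of 0.37. The peptides Cck and Vip had differences of -0.10 ± 0.24 and -0.01 ± 0.17. Calb2, calretinin, averaged 240 ± 40.8 FPKM in Th-high libraries and 289 ± 65.0 FPKM in Th-low libraries, and its slope was -0.25 ± 0.05 (limma, adjusted p = 0.00043). Without cocaine library 6 its difference was -0.39 in place of -0.24.

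Channels that set firing were mixed. Of 17 genes on the list, 16 passed the filter, with 10 above 0 and 6 below (8 and 8 after quantile normalization) and a median of 0.05. The injected libraries gave 7 positive and 3 negative slopes, against 13.5% and 13.8% of all genes. The largest differences of the list were those of potassium channel genes. Kcns3, a silent subunit of Kv2 channels, averaged 10.2 ± 1.23 FPKM in Th-high libraries and 6.26 ± 1.36 FPKM in Th-low libraries, and 7 of 8 Th-high libraries were above the Th-low range. Kcnd3, the Kv4.3 subunit of the A-type current, averaged 40.6 ± 8.25 FPKM in Th-high libraries and 27.4 ± 4.85 FPKM in Th-low libraries. Kcnn3, the SK3 calcium-activated channel, and Kcnj6, the GIRK2 subunit opened by D2 receptors, had differences of 0.39 ± 0.17 and 0.37 ± 0.15 (SE). The GIRK subunits Kcnj5 and Kcnj9 lay below 0, at -0.17 ± 0.07 and -0.18 ± 0.08.

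Over the 4 dopamine lists of synthesis, factors, receptors and other neuron genes together, 47 of 52 genes passed the filter and 44 of these had a difference above 0 (42 after quantile normalization), with a median of 0.51. Of the 47, 5 were higher without overlap, namely Chrna4, Drd2, Gch1, Ntsr1 and Sncg, and 0 were lower, against 0.107% and 0.0609% of all genes. There were 46 fitted in the injected libraries, with 41 positive slopes and 1 negative, and a median slope of 0.47 against -0.0044 for all genes. Over all genes tested there, 13.5% had a positive and 13.8% a negative slope. Without both libraries that stood apart, 7 of 47 were higher without overlap, against 34 of all 13129 genes, the additional genes on the lists being Chrna6 and Chrnb3. These lists were drawn up with results of the same data known, so their direction is a description.

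The remaining genes higher without overlap are on none of the dopamine lists. Slc39a4, the zinc importer ZIP4, had the second largest difference of the 14 genes. It had 4.12, 6.69 and 8.67 FPKM (lowest, median, highest) in Th-high libraries, against 1.99, 3.07 and 3.73 FPKM in Th-low libraries, a difference of 0.94 ± 0.15 (SE). Its slope of 0.81 ± 0.04 in the injected libraries (limma, adjusted p = 8.02e-16) was close to that of Gch1. The uncharacterised gene 6330416G13Rik averaged 9.91 ± 0.68 FPKM in Th-high libraries and 7.01 ± 0.61 FPKM in Th-low libraries. Ppap2c, a lipid phosphate phosphatase, averaged 9.39 ± 1.15 FPKM in Th-high libraries and 7.41 ± 0.68 FPKM in Th-low libraries. Klhl29, a Kelch-like protein, and Mturn, maturin, had small differences of 0.21 ± 0.04 and 0.18 ± 0.03. All of these except Irak2 and Meis1 also had a positive slope in the injected libraries, so that 12 of 14 passed the same test there, against 13.5% of all genes.

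Irak2 and Meis1 separated the sides in the self-administration libraries but had no slope past the threshold in the injected libraries. Irak2, a kinase of interleukin-1 and Toll-like receptor signalling, averaged 7.39 ± 0.78 FPKM in Th-high libraries and 5.97 ± 0.38 FPKM in Th-low libraries. Its slope in the injected libraries was 0.00 ± 0.03 (limma, adjusted p = 0.979). Meis1, a homeobox factor, averaged 2.83 ± 0.31 FPKM in Th-high libraries and 2.30 ± 0.20 FPKM in Th-low libraries, and its slope was 0.07 ± 0.03 (limma, adjusted p = 0.0988). The difference between the sets of libraries was not tested.

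Ttc12 and Drd2 are neighbours. On GRCm38 Drd2 lies on the plus strand of chromosome 9 at 49340627 to 49408177, and Ttc12 on the minus strand at 49436963 to 49486225, with their 3′ ends facing each other 28.8 kb apart. Ttc12, a tetratricopeptide repeat protein, had 2.67 ± 0.40 FPKM in Th-high libraries and 1.98 ± 0.17 FPKM in Th-low libraries, a difference of 0.30 ± 0.06 (SE) and a slope of 0.19 ± 0.03 (limma, adjusted p = 9.92e-05). Ankk1, which lies between them and was looked at after these values were seen, was too low for the filter, at 0.39 ± 0.12 FPKM in Th-high libraries and 0.20 ± 0.04 FPKM in Th-low libraries. Strand-specific counting is not stated in the sources used here, so reads that run past the end of a gene into its neighbour cannot be told apart from its own. Ntsr1 and Chrna4 lie 473.4 kb apart on chromosome 2.

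Fewer genes were lower than higher in the Th-high libraries without overlap, and they belong to no common list. Chodl, chondrolectin, had 0.76, 1.31 and 2.17 FPKM (lowest, median, highest) in Th-high libraries, against 2.17, 2.67 and 3.89 FPKM in Th-low libraries, so the nearest libraries all but touched. Its slope in the injected libraries was -0.43 ± 0.06 (limma, adjusted p = 1.37e-06). Arhgap36, an inhibitor of protein kinase A on chromosome X, averaged 14.4 ± 3.12 FPKM in Th-high libraries and 22.2 ± 2.06 FPKM in Th-low libraries, a difference of -0.61 ± 0.12 (SE) with a slope of -0.54 ± 0.10 (limma, adjusted p = 6.67e-05). Its nearest libraries all but touched, at 18.65 FPKM (Th-high) and 18.69 FPKM (Th-low). Dgkg, a diacylglycerol kinase, averaged 8.83 ± 0.66 FPKM in Th-high libraries and 11.7 ± 1.74 FPKM in Th-low libraries. Cdkl4, a cyclin-dependent kinase-like gene, and Fam81a had slopes of -0.25 ± 0.04 and -0.15 ± 0.03, both past the limma threshold, with Fam81a at an adjusted p of 0.00013. Fam81a reached 16.7 FPKM in cocaine library 6 and its difference of -0.32 was -0.21 without that library. Fzd1, a Wnt receptor, averaged 7.51 ± 0.63 FPKM in Th-high libraries and 8.66 ± 0.47 FPKM in Th-low libraries, and its slope of -0.03 ± 0.03 did not pass the test (limma, adjusted p = 0.522). In all, 5 of the 6 genes fitted in the injected libraries had a negative slope there, against 13.8% of all genes.

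Genes of motile cilia, which line the ventricle on ependymal cells, were lower in the Th-high libraries. Ccdc113 and Ccdc114, both proteins of motile cilia, did not overlap. Ccdc113 averaged 0.84 ± 0.14 FPKM in Th-high libraries and 1.58 ± 0.26 FPKM in Th-low libraries, and Ccdc114 0.77 ± 0.16 FPKM in Th-high libraries and 1.36 ± 0.23 FPKM in Th-low libraries. Ccdc114 averaged under 1 FPKM in the Th-high and in the middle libraries. It passed the filter only through the Th-low libraries, where it is higher, so nothing is read from its lack of overlap. Neither gene is on the ependyma and choroid plexus list. Tmem212, an ependymal gene, had 0, 0.20 and 5.05 FPKM (lowest, median, highest) in Th-high libraries, against 0.26, 4.67 and 8.93 FPKM in Th-low libraries, a difference of -1.57 ± 0.47 (SE). The 5.05 FPKM came from saline library 2, and 5 of 8 Th-high libraries were below the whole Th-low range. Ccdc153 followed the same pattern with a difference of -1.35 ± 0.42. Foxj1, the master factor of motile cilia, overlapped, at 3.92 ± 1.55 FPKM in Th-high libraries and 5.55 ± 2.64 FPKM in Th-low libraries. Ccdc113, Ccdc114, Tmem212 and Ccdc153 were under 1 FPKM on average in the injected libraries and were not fitted there, and the slope of Foxj1 was -0.12 ± 0.06 (limma, adjusted p = 0.121). On the whole ependyma and choroid plexus list, 5 of 8 genes passed the filter, 4 of them below 0, and the summed level ran from 9.68 to 22.8 FPKM in Th-high libraries and from 12.8 to 32.6 FPKM in Th-low libraries. Ttr, the defining transcript of choroid plexus, averaged 0.61 ± 0.38 FPKM in Th-high libraries and 0.81 ± 1.29 FPKM in Th-low libraries. Their part in the differences of other genes was not tested.

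**Figure D2:**
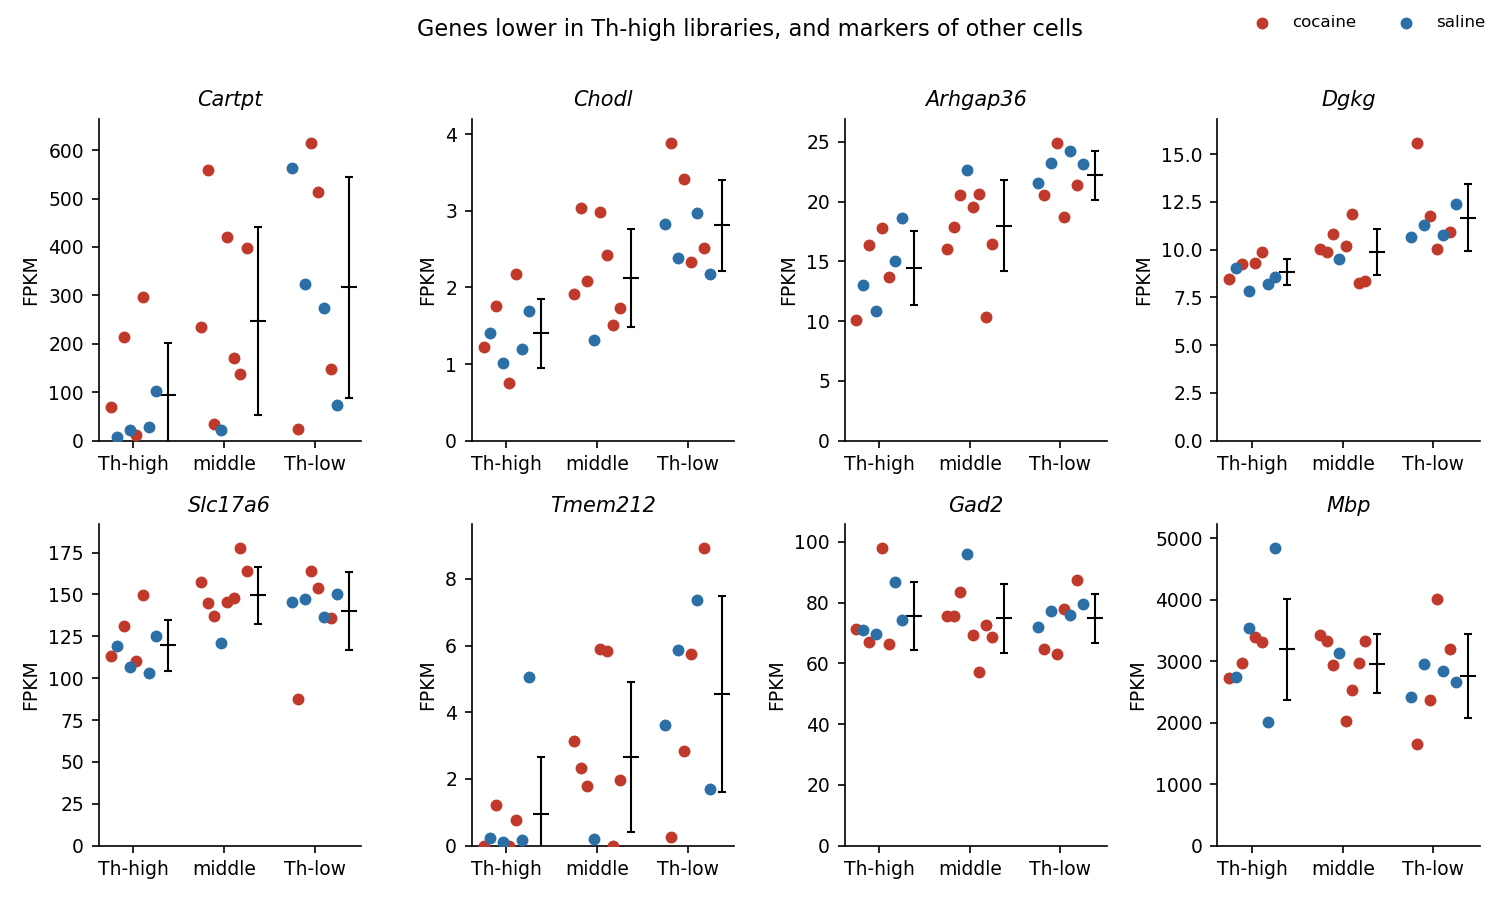
FPKM of 8 genes that were lower in Th-high libraries or mark other cells, in the 24 self-administration libraries, ordered from left to right by falling Th within the Th-high, middle and Th-low libraries (n = 8 each, red for cocaine and blue for saline), with the mean and SD beside each set and SD bars stopped at 0. In the deposited FPKM Chodl, Arhgap36 and Dgkg do not overlap between Th-high and Th-low libraries, and Cartpt and Tmem212 vary widely within each set. Gad2 lies at similar levels in all sets, and Mbp overlaps between Th-high and Th-low libraries with a difference of mean log2(FPKM + 1) of 0.21.

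Peptide genes of neighbouring nuclei had large differences and a wide spread within each side. Cartpt, the CART peptide, had 7.05, 48.1 and 297 FPKM (lowest, median, highest) in Th-high libraries, against 25.1, 299 and 615 FPKM in Th-low libraries. The sides overlapped, the difference was -2.15 ± 0.88 (SE), and it was -2.58 without cocaine library 6, the Th-low library at 25.1 FPKM. The slope in the injected libraries was -2.09 ± 0.38 (limma, adjusted p = 0.000115). Ucn, urocortin, which was added after the values were seen, averaged 3.49 ± 5.07 FPKM in Th-high libraries and 11.4 ± 8.56 FPKM in Th-low libraries, with a slope of -1.88 in the injected libraries (limma, adjusted p = 0.000419). Cartpt and Ucn are both expressed by the Edinger-Westphal nucleus, which lies at the midline above the VTA.

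The hypothalamic genes Pmch and Hcrt did not follow Cartpt. Pmch, the precursor of melanin-concentrating hormone of the lateral hypothalamus, had 1.05, 14.4 and 197 FPKM in Th-high libraries, against 0.63, 5.23 and 118 FPKM in Th-low libraries. The 197 FPKM came from saline library 0, without which the difference of 0.61 ± 1.16 was 0.06, and it was 0.31 without saline library 4. The slope of Pmch in the injected libraries was -0.08 ± 0.27 (limma, adjusted p = 0.86). Hcrt, orexin, averaged 3.01 ± 4.39 FPKM in Th-high libraries and 2.20 ± 5.16 FPKM in Th-low libraries, a difference of 0.49 that was 0.15 without saline library 4. On the list of hypothalamic and mammillary genes 9 of 12 passed the filter, 3 above 0, Pmch and Hcrt among them, and 6 below, with a median of -0.07. In the injected libraries 5 were fitted, with 0 positive and 2 negative slopes, against 13.5% and 13.8% of all genes. The summed level of the list ran from 38.3 to 322 FPKM in Th-high libraries and from 117 to 640 FPKM in Th-low libraries. The list includes Cartpt, which alone reached 297 FPKM in Th-high and 615 FPKM in Th-low libraries. Pmch and Hcrt also differed between treatments at unadjusted p (cocaine minus saline -2.34 and -1.39, limma, unadjusted p = 0.00532 and p = 0.00827), but not after adjustment over all genes.

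Among markers of the other neurons of the VTA, GABA genes had a median difference near 0 and glutamate genes lay mostly below 0. Gad2, the GABA-synthesising enzyme, averaged 75.6 ± 11.1 FPKM in Th-high libraries and 74.8 ± 8.03 FPKM in Th-low libraries (SD, n = 8 each), a difference of 0.01 ± 0.09 (SE) that was -0.03 after quantile normalization. Slc32a1, the vesicular GABA transporter, averaged 47.4 ± 16.2 FPKM in Th-high libraries and 41.0 ± 11.3 FPKM in Th-low libraries. Of 13 genes on the GABA neuron list 12 passed the filter, 7 above 0 and 5 below (6 and 6 after quantile normalization), with a median of 0.01 and with 1 positive and 1 negative slope in the injected libraries. The interneuron peptides Sst and Npy were the lowest, with differences of -0.54 ± 0.27 and -0.62 ± 0.33, and neither slope passed the test (limma, adjusted p = 0.399 and adjusted p = 0.592). Cocaine library 6 had 25.8 FPKM of Npy and the next Th-low library 7.02 FPKM, and without cocaine library 6 the difference of Npy was -0.34. Slc17a6, the vesicular glutamate transporter VGLUT2, averaged 120 ± 15.2 FPKM in Th-high libraries and 140 ± 23.1 FPKM in Th-low libraries. Its lowest value on either side, 87.6 FPKM, was in cocaine library 6, and the difference was -0.21 with it and -0.31 without it. The injected libraries gave Slc17a6 a slope of -0.28 ± 0.03 (limma, adjusted p = 3.87e-08). Of 8 glutamate neuron genes 6 passed the filter, 5 below 0, with a median of -0.10, and 2 of the 5 fitted slopes were negative at an adjusted p under 0.05 in limma, with a median slope of -0.27. Over all genes, 13.5% had a positive and 13.8% a negative slope.

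Glial and vascular genes mostly differed little between the sides. Of 18 myelin genes, all of which passed the filter, 14 had a difference above 0 with a median of 0.05 (9 of 18 after quantile normalization), and in the injected libraries 0 had a positive and 3 a negative slope. Mbp, myelin basic protein, averaged 3192 ± 825 FPKM in Th-high libraries and 2761 ± 684 FPKM in Th-low libraries. Apod, apolipoprotein D, had the largest difference of the list, 0.43 ± 0.17 (SE), with a slope of 0.03 ± 0.05 (limma, adjusted p = 0.671). Gfap, the intermediate filament of reactive astrocytes, had 14.6, 47.5 and 174 FPKM (lowest, median, highest) in Th-high libraries, against 24.7, 29.0 and 150 FPKM in Th-low libraries. The 174 FPKM came from saline library 4 and the 150 FPKM from cocaine library 6, and the difference of 0.37 ± 0.49 was 0.11 without saline library 4 and 0.66 without cocaine library 6. Gfap had a slope of 0.63 ± 0.17 in the injected libraries (limma, adjusted p = 0.0056). Of the 14 astrocyte genes, Gfap among them, 6 were above 0 and 8 below, with a median of -0.03. Among those below 0 were Gja1 at -0.25, Slc1a2 at -0.15 and Aqp4 at -0.08. In the injected libraries 2 of the 14 had a positive and 1 a negative slope. Of 17 microglial genes 4 were above 0 and 13 below, with a median of -0.03 and Cx3cr1 at -0.14 ± 0.15. Their slopes in the injected libraries went the other way, 4 positive and 0 negative, with a median of 0.07. Of 16 endothelial and pericyte genes 5 were above 0 and 11 below, with a median of -0.09, 0 positive and 9 negative slopes, and Cldn5 at -0.18 ± 0.21. Over all genes tested in the injected libraries, 13.5% had a positive and 13.8% a negative slope.

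Defining markers of serotonin and cholinergic neurons were at or near the floor of the data, whereas pituitary hormone genes were high in single libraries. Tph2, which makes serotonin in the raphe, averaged 1.02 ± 0.65 FPKM in Th-high libraries and 0.66 ± 0.16 FPKM in Th-low libraries, and Slc6a4, the serotonin transporter, 0.24 ± 0.40 FPKM in Th-high libraries and 0.05 ± 0.05 FPKM in Th-low libraries. Chat, the marker of cholinergic neurons, averaged 0.50 ± 0.10 FPKM in Th-high libraries and 0.41 ± 0.10 FPKM in Th-low libraries. Chrna3, a nicotinic subunit, stood out on the list of habenula and interpeduncular genes at 4.85 ± 1.41 FPKM in Th-high libraries and 2.87 ± 0.79 FPKM in Th-low libraries, with a slope of 0.64 ± 0.04 (limma, adjusted p = 5.16e-14). Its difference was 0.58, against 0.57 for Chrna4 and 0.83 for Chrna5. Which cells carried Chrna3 was not tested. The pituitary hormone genes Gh, Prl and Pomc ranged from 0 to 701 FPKM across single libraries of both sides, and the differences of Gh and Prl, 0.68 and 0.53, were -0.36 and -0.22 without saline library 4. The globin genes Hba-a1 and Hba-a2 share near-identical copies, and their values cannot be assigned to one of them.

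Activity-regulated genes were mostly lower in the Th-high libraries. Of 21 immediate early genes 18 passed the filter, 3 above 0 and 15 below, with a median of -0.09 against 0.0071 for all genes. Nptx2, neuronal pentraxin 2, averaged 1.95 ± 0.49 FPKM in Th-high libraries and 2.99 ± 0.61 FPKM in Th-low libraries, a difference of -0.44 ± 0.12 (SE) with a slope of -0.30 ± 0.05 (limma, adjusted p = 8.69e-05). Nr4a3 had a difference of -0.39 ± 0.18 and Egr1 of -0.34 ± 0.21, with Egr1 at 18.8 ± 4.76 FPKM in Th-high libraries and 24.5 ± 7.73 FPKM in Th-low libraries. Fos overlapped, at 7.96 to 26.4 FPKM in Th-high libraries and 11.0 to 22.1 FPKM in Th-low libraries. In the injected libraries 1 of 17 fitted genes had a positive slope, Btg2, and 5 a negative slope, against 13.5% and 13.8% of all genes.

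**Figure D3:**
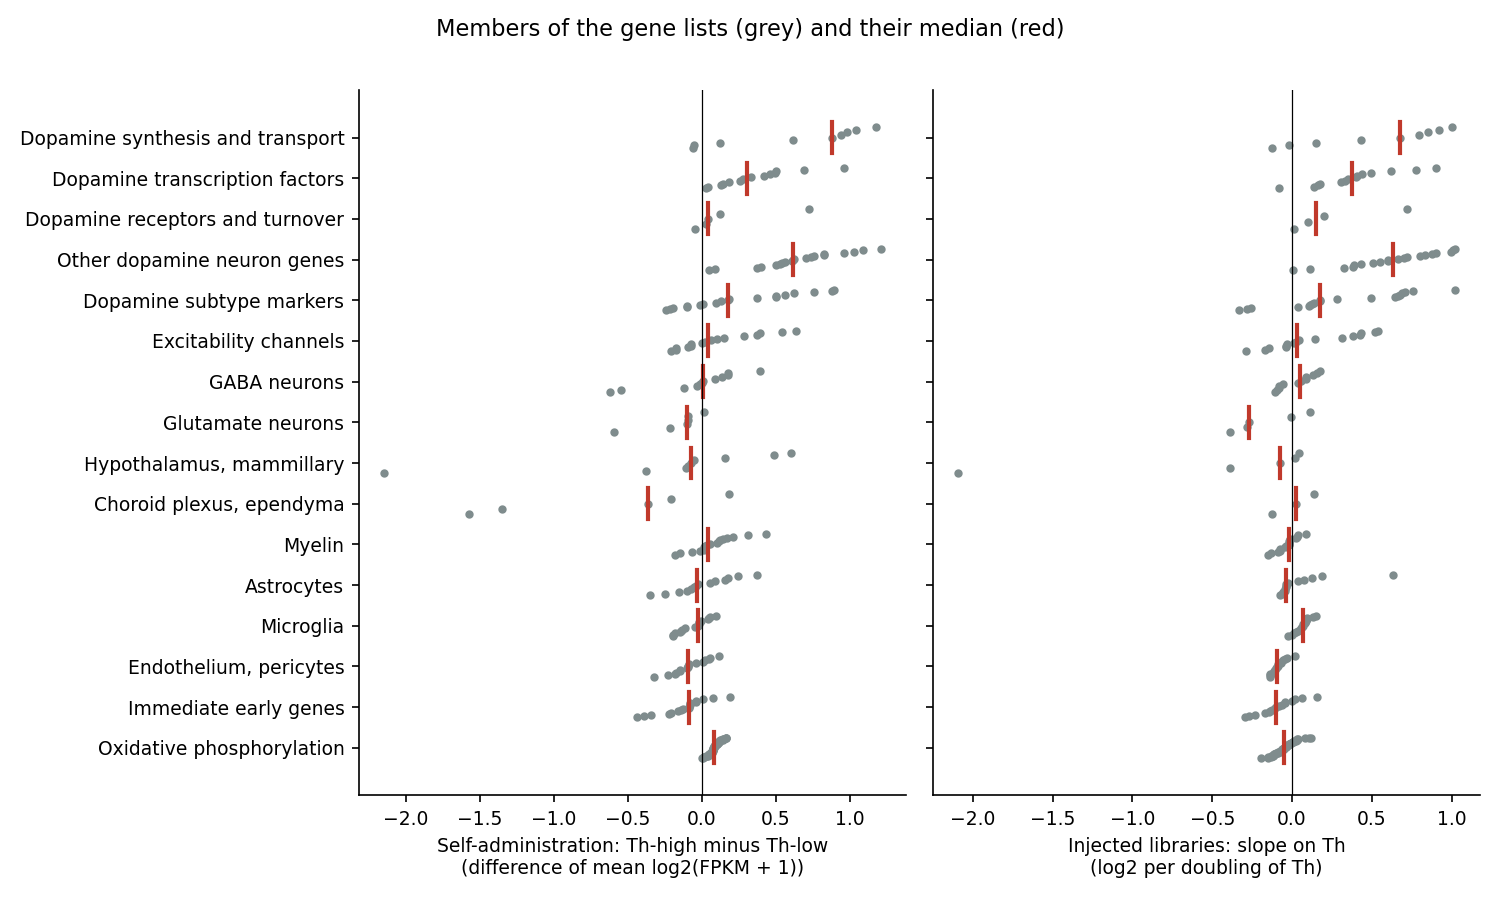
Differences of mean log2(FPKM + 1), Th-high minus Th-low, in the self-administration libraries (left) and slopes on Th in the 35 injected libraries (right), for the members of 16 gene lists that passed the filters (grey points) with the list median (red line). The dopamine lists of synthesis and of other neuron genes lie to the right in both panels with medians of 0.88 and 0.62 at left and 0.68 and 0.63 at right, and most other lists centre near 0.

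Small shifts across many genes ran beside these differences. All 53 nuclear oxidative phosphorylation genes had a difference above 0, with a median of 0.08, but 41 of 53 after quantile normalization. Their slopes in the injected libraries had a median of -0.05, with 2 positive and 13 negative at an adjusted p under 0.05 in limma, against 13.5% and 13.8% of all genes. The difference also moved with gene length. With genes in 10 equal bins of exon length, its median was 0.03 for the shortest bin (median 1263 bases) and -0.03 for the longest bin (median 12662.5 bases). In the injected libraries the median slope was -0.01 in both. The part of exon length in the differences of single genes was not tested.

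The comparison was also read from the injected libraries to the self-administration libraries, on the genes with the steepest slopes, a limit set after the values were seen. Of 13172 genes, 98 had a slope of at least 0.4 with an adjusted p under 0.05 in limma (0.744%), and 89 of them passed the filter in the self-administration libraries. All 89 were higher on average in the Th-high than in the Th-low libraries, with a median difference of 0.52 and a range of 0.17 to 1.21. Of the 89, 28 are on the dopamine lists. The others include Fam167a, at 10.4 FPKM in Th-high and 5.22 FPKM in Th-low libraries, the cation channel Trpc6, at 6.51 FPKM in Th-high and 3.31 FPKM in Th-low libraries, and Cadps2, a priming factor of dense-core vesicles, at 44.7 FPKM in Th-high and 24.9 FPKM in Th-low libraries. Ntn1, netrin 1, had 20.2 FPKM in Th-high and 12.5 FPKM in Th-low libraries. Aldh1a7, at 4.89 FPKM in Th-high and 2.31 FPKM in Th-low libraries, is a close copy of Aldh1a1 and may share its reads. For Aldh1a7 1 of 8 Th-high libraries was above the Th-low range, or 6 of 8 without cocaine library 6.

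A further 19 genes had a slope of -0.4 or lower (0.144%), and 18 of the 19 were lower in the Th-high libraries, with a median difference of -0.53. The exception was Tac1, substance P, at 68.5 ± 29.0 FPKM in Th-high libraries and 64.5 ± 25.9 FPKM in Th-low libraries, a difference of 0.06 ± 0.25 (SE), with a slope of -0.41 ± 0.13 (limma, adjusted p = 0.0191). Its highest libraries were saline library 0 on the Th-high side, at 130.4 FPKM, and cocaine library 6 on the Th-low side, at 127 FPKM, and the difference was -0.08 without saline library 0 and 0.21 without cocaine library 6. Next to Cartpt and Ucn, the set held developmental transcription factors. Nr2f2 (COUP-TFII) had 7.77 ± 2.42 FPKM in Th-high and 12.6 ± 2.44 FPKM in Th-low libraries, with 5 of 8 Th-high libraries below the Th-low range. Foxd2 had 0.71 ± 0.52 FPKM in Th-high and 1.76 ± 0.69 FPKM in Th-low libraries, with 6 of 8 below it. Tcf7l2 had 7.63 ± 2.09 FPKM in Th-high and 13.2 ± 7.32 FPKM in Th-low libraries, a difference of -0.53 ± 0.34, with the Th-high range inside the Th-low range. Nkx6-1 had 1.40 ± 0.80 FPKM in Th-high and 2.12 ± 0.81 FPKM in Th-low libraries, with 1 of 8 Th-high libraries below the Th-low range. Its difference of -0.41 ± 0.24 was -0.25 without saline library 0. Gpr101, an orphan receptor, had 7.17 FPKM in Th-high and 12.2 FPKM in Th-low libraries. Over all genes called in the injected libraries, 1465 of the 1748 with a positive slope that passed the filter were higher in Th-high libraries (83.8%), and 1339 of the 1816 with a negative slope were lower (73.7%).

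**Figure D4:**
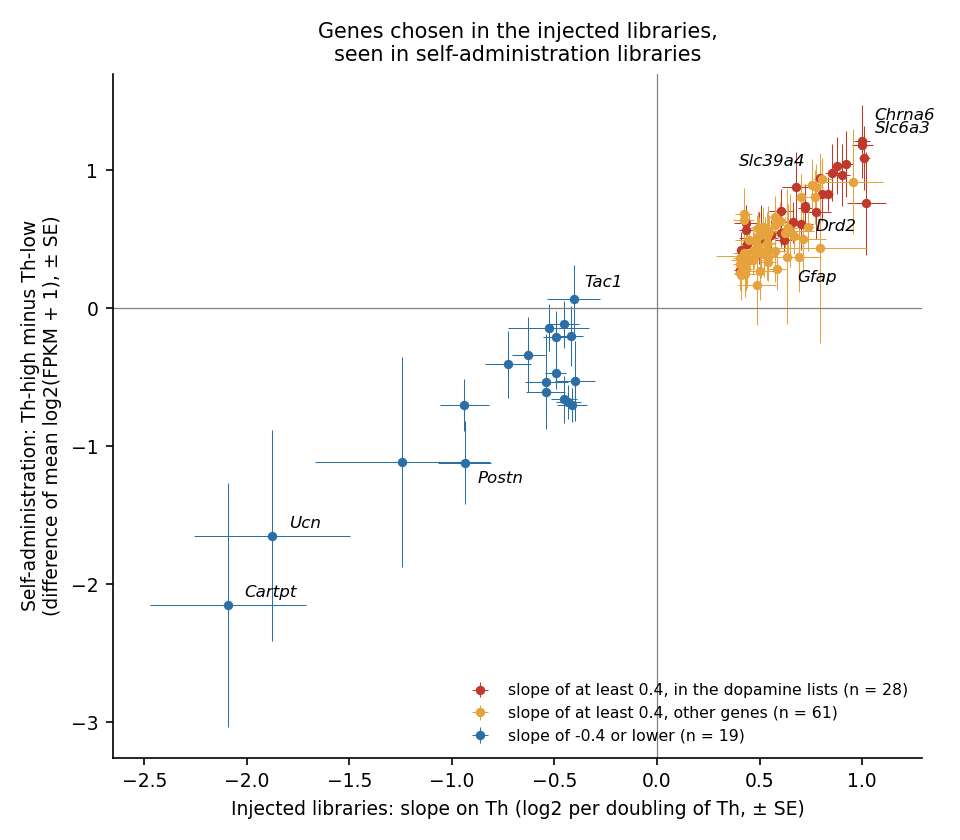
Genes with a slope on Th of at least 0.4 in size and an adjusted p under 0.05 in the 35 injected libraries (horizontal axis, slope ± SE) against their difference of mean log2(FPKM + 1), Th-high minus Th-low, in the self-administration libraries (vertical axis, ± SE). All 89 genes with a positive slope lie above 0 on the vertical axis and 18 of 19 genes with a negative slope lie below it, Tac1 being the exception with all libraries in.

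The genes with the smallest adjusted p for a negative slope in the injected libraries all had a difference below 0 with all self-administration libraries in. Those of Camkk1 and Camk2g were small. Camkk1, a kinase upstream of calcium/calmodulin-dependent kinases, had a slope of -0.26 ± 0.02 (limma, adjusted p = 9.6e-11), but averaged 36.5 ± 5.13 FPKM in Th-high libraries and 38.01 ± 6.43 FPKM in Th-low libraries. Camk2g averaged 90.5 ± 8.50 FPKM in Th-high libraries and 92.3 ± 11.3 FPKM in Th-low libraries. For both, cocaine library 6 was the lowest Th-low library, at 22.7 FPKM of Camkk1 and 67.3 FPKM of Camk2g. Without it the differences were -0.15 for Camkk1, in place of -0.05, and -0.09 for Camk2g, in place of -0.02, and without saline library 0 that of Camk2g was 0.01. Cnr1, the cannabinoid receptor CB1, had a difference of -0.25 ± 0.07 (SE), and 7 of 8 Th-high libraries were below all Th-low libraries. Sorcs1, a sorting receptor, had a difference of -0.24 ± 0.09, and Pmfbp1 of -0.24 ± 0.08. The difference of 9430021M05Rik was -0.37, or -0.46 without cocaine library 6.

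Cocaine against saline was compared as a label that the choice by Th did not use. In limma on all 24 self-administration libraries, cocaine (n = 15) against saline (n = 9) gave 0 of 13130 genes at an adjusted p under 0.05 (0.0%), the smallest adjusted p being 0.999 for Sh3bp2, and 450 genes at an unadjusted p under 0.05 (3.43%). With library quality weights 1 gene was called. Of the 22 genes that did not overlap between Th-high and Th-low libraries, 0 had an unadjusted p under 0.05, and cocaine minus saline ran from -0.10 to 0.16 among them. Of the 47 dopamine genes 1 did, Fgf20. Cocaine minus saline for Drd2 was 0.00 ± 0.15 (SE, limma, unadjusted p = 0.996), and its mean was 56.3 FPKM in cocaine and 51.7 FPKM in saline Th-high libraries.

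The number of genes that do not overlap depended strongly on single libraries. Leaving out 1 library gave 14 to 27 genes higher and 8 to 24 genes lower. The sides were not chosen again, so the numbers could only stay or rise. That the 14 and the 8 genes above were among them each time was therefore fixed in advance. The number higher was 23 without cocaine library 12, 22 without saline library 0, 27 without saline library 2, 22 without saline library 8, 25 without cocaine library 6 and 25 without cocaine library 4. The number lower was 15 without saline library 0, 22 without saline library 2, 18 without cocaine library 6 and 24 without cocaine library 4. Without both cocaine library 6 and saline library 0, which left 7 against 7, it was 34 higher and 26 lower.

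When the 24 libraries were ranked by Slc6a3 in place of Th, 6 of the 8 libraries on each side were the same. The genes without overlap were mostly others. Of 64 genes higher, 1 was shared with the 14 above, Ttc12, and of 8 genes lower 0 were shared with the 8 above. The dopamine genes without overlap were then Aldh1a1, Anxa1, Chrna6, Ddc, Gucy2c, Satb1, Slc10a4, Slc18a2 and Syt17, 9 of 46 tested. Chrna4, Drd2, Gch1, Ntsr1 and Sncg, the genes without overlap by Th, were not among them.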

How the data were processed

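The authors deposited 1 table of FPKM values per gene for 59 libraries, and Bowtie, Cuffnorm and the mm10 build are named in the submitters' processing notes. Libraries were made with the TruSeq RNA kit, per the labels' protocols. Neither the annotation nor the strand setting is stated in the sources used here. Depth is unknown, so no counting interval is given. The FPKM of a gene depends on what else its library holds. From the deposited values, log2(FPKM + 1) was computed for genes averaging 1 FPKM or more across the libraries compared. The 24 self-administration libraries were ranked by Th, and the 8 highest and 8 lowest were described without a test. Slopes on log2(Th FPKM + 1) in the 35 injected libraries, with the 6 groups as a factor, and cocaine against saline in the 24 self-administration libraries were fitted with limma 3.58.1 in R 4.3.3 (trend, robust, two-sided, Benjamini-Hochberg over all genes tested, threshold 0.05), after the code was tested on simulated data. Other steps used Python 3.11.15. Gene positions came from the GENCODE annotation of GRCm38, which matched 96.4% of the 13129 genes by symbol.

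Genes were named by these rules: up to 12 per direction with the largest difference among those without overlap, set dopamine genes, the members of each list with the largest difference plus defining markers, and the genes with the smallest adjusted p in the injected libraries. The other genes higher without overlap were named as well. The members and lists were chosen with earlier results of these data known. The column numbers, counted from 0, could not be tied to the labels' replicate numbers, so no samples were paired. Alternatives changed the pseudocount, filter, normalization, libraries per side, ranking gene, weights or libraries used. Leaving out both libraries that stood apart was added after the data were seen. Some results are not reported here.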

Additional observations from a re-analysis of the deposited data

Results flagged for a closer look

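For 134 genes, those named in the text among them, the 8 Th-high and the 8 Th-low libraries were each searched for a library far from its neighbours. The measure is the gap between the highest or lowest library and its nearest neighbour, as a share of the whole range of log2(FPKM + 1), and sets above Dixon's 95% critical value for 8 libraries are given here. Of 268 sets of 8 libraries checked, 34 exceeded it. Chance does so in about 1 set in 20 only where sets are independent and values normally distributed. These sets share the same libraries, and some genes were chosen after their values were seen, so the 34 cannot be set against that share.

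Of the 34, 19 came from cocaine library 6, the Th-low library that stood apart. It was the highest Th-low library for Fam81a (0.825, at 16.7 FPKM against 9.44 FPKM in the next library), Gfap (0.763), Npy (0.660), Tac1 (0.653), Maob (0.642), Hba-a2 (0.637), Ttr (0.618), Slc6a4 (0.559), Aqp4 (0.554) and Dgkg (0.528). It was the lowest Th-low library for Camkk1 (0.783), Calb2 (0.775), Slc17a6 (0.696), Camk2g (0.603), Meis1 (0.555), Pmfbp1 (0.544), Sorcs1 (0.539), 9430021M05Rik (0.530) and Nkx6-1 (0.528). Calretinin, encoded by Calb2, was at 135 FPKM there and 282 FPKM in the next library.

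Among the Th-high libraries, cocaine library 5 was highest for Irak2 (0.605) and Ttc12 (0.527) and lowest for Fzd1 (0.564). Saline library 2 was highest for the ependymal genes Ccdc153 (0.608) and Tmem212 (0.559). Saline library 0 was highest for Pts (0.543), cocaine library 11 for Otx2 (0.536), and saline library 4 lowest for Drd1 (0.603). Cocaine library 12 was highest for Drd4 (0.630) and saline library 6 for Gpr143 (0.737), at 0.21 FPKM and 0.17 FPKM. Among the Th-low libraries, saline library 3 was highest for Hcrt (0.601), at 14.9 FPKM against 2.01 FPKM in the next library. Cocaine library 10 was highest for the pituitary hormone genes Pomc (0.712), Gh (0.542) and Prl (0.527), and cocaine library 4 for Hba-a1 (0.697).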

How the results depend on the processing

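No difference without overlap and no slope past the threshold changed sign for a named gene under any alternative run. For the genes without overlap this was fixed when libraries were left out, or when the pseudocount or filter changed. With 6 libraries per side or a single treatment the same held. Only quantile normalization, 12 libraries per side and ranking by Slc6a3 could have changed their sign. A pseudocount keeps the order of the libraries, so it leaves the numbers without overlap unchanged. The 14 genes higher and 8 lower without overlap were 14 and 8 with a pseudocount of 0.1, 16 and 14 without the filter, 10 and 4 at a mean of at least 5 FPKM, and 12 and 4 after quantile normalization. They were 134 and 72 with 6 libraries per side, 0 and 1 with 12 per side, 64 and 8 when ranked by Slc6a3, 184 and 181 in cocaine libraries alone, and 305 and 270 in saline libraries alone, where fewer libraries make it easier not to overlap. Leaving out 1 library gave 14 to 27 higher and 8 to 24 lower, and leaving out both libraries that stood apart 34 and 26. In the injected libraries, the 1782 positive and 1824 negative slopes were 1105 and 925 without the acute paradigm, 1064 and 959 without conditioning, and 750 and 717 in saline libraries alone, and negative slopes were 1152 in cocaine libraries alone, all with fewer samples. Leaving out 1 injected library gave 1573 to 1901 positive and 1498 to 1985 negative slopes. Of the genes without overlap, 12 to 13 of the 14 and 5 to 6 of the 8 then passed in the same direction, and 3 of the 8 with a mean of at least 5 FPKM, where fewer genes are tested. With quality weights 1 gene was higher after cocaine, in place of 0, and the cause was not tested. No paired analysis was possible because the column numbers, counted from 0, have no known link to the labels' replicate numbers. FPKM without read counts limit what can be said of genes near 1 FPKM.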
